A study of Mus musculus with 13 samples.

Results

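SB203580 is a pyridinyl imidazole that inhibits the p38 mitogen-activated protein kinases, and it was given at 10 µM to S1 cells, a feeder-free mouse embryonic stem (ES) cell line. The comparison with untreated S1 cells comprised 7 of the 13 arrays in the series, chosen by sample title. On the Affymetrix array MG-U74A there were 2 control arrays and 1 SB203580 array. On the later version, MG-U74Av2, there were 2 control and 2 SB203580 arrays. All of these cells, controls included, had been grown with 500 pM leukaemia inhibitory factor (LIF) and were then kept for 3 days in medium without it. Only adherent cells were lysed, so detached cells were not measured. A further 4 S1 arrays, 2 on each array version, came from cells given 10 µM PD169316, another p38 inhibitor of the same chemical family, for the same time. The remaining 2 arrays, of the D4 line, were not used here. The labels do not say whether replicates were separate cultures, so the p-values rest on the variation from array to array, and that variation may be purely technical.

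LIF acts through STAT3 to hold mouse ES cells undifferentiated, and once it is withdrawn the pluripotency programme declines. Nodal, a ligand of the transforming growth factor beta family, signals through activin receptors with the co-receptor Cripto (Tdgf1) to SMAD2 and SMAD3, and it induces both its own gene and the genes of its secreted inhibitors Lefty1 and Lefty2. The p38 kinases are activated by stress and cytokines and act on transcription factors and on downstream kinases such as MAPKAPK2, so an inhibitor of kinase activity need not alter the RNA of the kinase itself.

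The deposited values were signals, which are intensities per probe set scaled to a trimmed mean of 300 on each array. Signals under 32 were set to 32, log2 was taken, and probe sets with at least 100 on at least 2 S1 arrays of an array version were tested with limma within that version. The 2 tests were then combined for the 5369 probe sets tested on both versions, and a log2 fold change given without an array version is the mean of both. Median signals of the 7 arrays lay between 89.4 and 120.9, and 24.5% to 29.9% of the probe sets lay at or under 32. The instrument records showed that the control and SB203580 arrays numbered 1 of both versions were washed on the same day, called day 3 here for its order among 5 wash days. The U74A control array 2 was washed on day 2, the U74Av2 SB203580 array 2 on day 4 and the U74Av2 control array 2 on day 5. With chip lots numbered by their order, the U74A SB203580 array was of lot 3 and its controls of lots 1 and 4. Lot and treatment thus cannot be told apart on U74A, while the U74Av2 arrays were all of lot 2. The U74Av2 arrays numbered 2 were washed by protocol EukGE-WS2v4 and the others by EukGE-WS2v3. Signal at the 3' control probe set of Actb relative to its 5' one, a measure of RNA integrity, was 3.31 and 3.21 on the 2 control arrays of day 3, 1.67 and 1.89 on the other controls, and 1.46 to 1.87 on the SB203580 arrays. For Gapdh this ratio was 1.71 on the U74Av2 SB203580 array 2 and 0.898 to 0.903 on the other SB203580 arrays. The part of wash day, chip lot, wash protocol and RNA integrity in the results was not tested beyond the values given below. In a lysate of many cells, fewer cells of a type and less RNA per cell cannot be told apart.

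The ES cell identity of the cultures was visible in both groups. Pou5f1, the gene of the pluripotency factor OCT4, had signals of 6606.4 and 6288.2 on the U74A controls and 6454.3 with SB203580, and of 8216.6 and 9165.4 on the U74Av2 controls and 7407.9 and 4130.3 with SB203580. All 7 ES cell markers passed the signal filter on U74Av2, and their summed signal was 25632 to 27643 in controls and 20474 to 21254 with SB203580. On U74A 6 were measured and passed, and their sum overlapped, at 15486 to 20936 in controls and 18187 with SB203580. None of the 3 endothelial markers passed the filter on either version. The mesoderm factor gene Mesp1 did not pass it either, and read 26.2 to 49 in controls and 82.1 to 86.6 with SB203580 on U74Av2, and 36.4 to 44.8 and 44.5 on U74A. The 5 extraembryonic endoderm markers, of which 2 passed on U74Av2, summed to 453.2 to 689.7 on the U74Av2 controls and 256.4 to 372.7 with SB203580, without overlap, and to 97 to 473.9 and 323.5 on U74A, with overlap. The 6 fibroblast markers, of which 3 passed on each version, summed to 1112 to 1242 on the U74Av2 controls and 574.5 to 918 with SB203580, and to 390.1 to 665.8 and 386.7 on U74A. The collagen gene Col1a2 was the brightest of them on U74Av2, at 620.6 to 629.6 in controls and 298.9 to 453.9 with SB203580. The signal of this U74Av2 probe set may be less specific, as described for Tdgf1 below. On U74A Col1a2 was read by another probe set, at 7.5 to 17.3 in controls and 7.3 with SB203580. The fibroblast sum on U74Av2 thus rests in large part on a single probe set that U74A did not match. Lum and Dcn lay under 120 on each of the 4 U74Av2 arrays. The sums of both lists were thus lower with SB203580 on U74Av2, as was that of the ES cell markers, and their part in the results was not tested.

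SB203580 left no probe set past the adjusted threshold of 0.05 in limma, neither in the combined test of 5369 probe sets (0%) nor on U74A (0 of 5681) nor on U74Av2 (0 of 7050). At an unadjusted p under 0.05 there were 249 in the combined test, against 268 that chance gives, with 114 higher (2.12% of those tested) and 135 lower (2.51%). The smallest adjusted p was 0.0676 and was shared by Dmtn and Lefty1, both lower with SB203580. With the replicate number (U74Av2) or the wash day (U74A) as a block, 3 probe sets passed (0.0559%), all lower: Dmtn (adjusted p = 0.00746), Lefty1 (0.0331) and Actb (0.0478). A log2 fold change in the combined test carried a median 95% confidence interval of 0.78 either way.

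A count without a model set each SB203580 array against each control array of its version, which gives 6 array comparisons that share arrays and are not independent. The SB203580 arrays lay below the controls in 6 of 6 comparisons for 411 of the 5369 probe sets (7.66%) and above them for 355 (6.61%). By at least 2-fold in 6 of 6, 8 were lower (0.149%) and 0 were higher (0%). The 8 were Dmtn, Lefty1, Anpep, Cggbp1, Rhox5, Pak4, Irf9 and Elk1, with the smallest of the 6 folds ranging from 2.04 for Elk1 to 3.83 for Dmtn. Irf9, a transducer of interferon signalling, is named for that count after its values were seen.

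**Figure D1:**
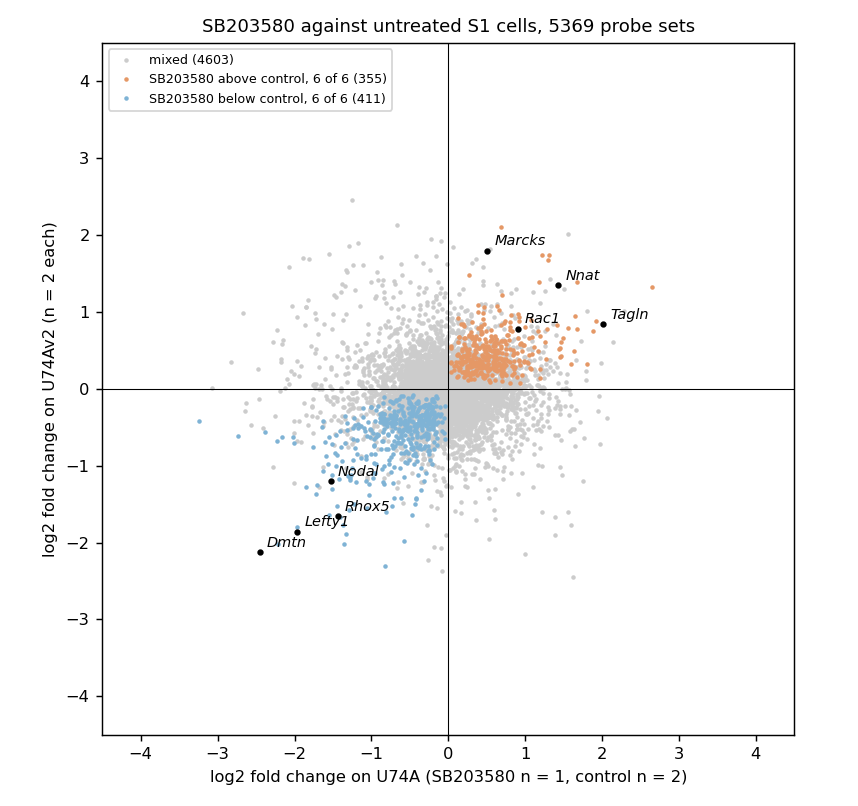
Each point is 1 of the 5369 probe sets tested on both array versions, with the log2 fold change of SB203580 against control on U74A (x axis) and on U74Av2 (y axis). Blue points (411) lay below and orange points (355) above control in 6 of 6 array comparisons. Dmtn and Lefty1 stand at the lower left, at -2.45 and -1.97 on U74A and -2.12 and -1.86 on U74Av2.

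Of the Nodal pathway, Lefty1, Nodal and Tdgf1 were among the lower values. Lefty1, the secreted Nodal inhibitor, had signals of 1214.5 and 1448.5 on the U74A controls against 339.1 with SB203580, and of 1035.2 and 1171.5 on the U74Av2 controls against 257.1 and 358.4 with SB203580. The groups did not overlap on either version, and the closest control and SB203580 arrays were still 2.89-fold apart. On U74Av2 the means were 1103 ± 96.4 in controls and 307.8 ± 71.6 with SB203580 (SD, n = 2 each). The combined log2 fold change of Lefty1 was -1.91 ± 0.43 (SE; 95% confidence interval -2.90 to -0.93; adjusted p = 0.0676, limma). Within day 3 alone the log2 ratios of Lefty1 were -1.84 on U74A and -2.01 on U74Av2, and the U74Av2 pair numbered 2 gave -1.71. Lefty1 passed the threshold in limma when control and SB203580 arrays alone were fitted (adjusted p = 0.0133) and when U74A PD169316 array 1 or array 2 was left out (0.0114 and 0.0124). Over the alternatives tried, the adjusted p of Lefty1 ran from 2.57e-07 to 0.473. The low end came from the fit of 2 ratios with 1 residual degree of freedom, described in the closing section.

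The signals of Nodal itself were 651.3 and 656.5 on the U74A controls and 226.6 with SB203580, and 816.9 and 646.6 on the U74Av2 controls and 282.9 and 352.7 with SB203580. Every SB203580 value lay below every control value of its version. The log2 fold change of Nodal was -1.37 ± 0.27 (SE; 95% confidence interval -1.99 to -0.74), with an adjusted p of 0.108 in limma and of 0.0739 with the block. The ratios within day 3 were -1.52 on U74A and -1.53 on U74Av2, and the U74Av2 pair numbered 2 gave -0.87.

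Tdgf1, the Cripto co-receptor, had signals of 342.8 and 507.5 on the U74A controls and 181.8 with SB203580. On U74Av2 the Tdgf1 signals were 419.6 and 467.2 in controls and 154.3 and 237.4 with SB203580. The groups again did not overlap. The log2 fold change of Tdgf1 was -1.20 ± 0.53 (SE), with an interval of -2.42 to 0.01 and an adjusted p of 0.747 in limma. The array designers' suffix of its probe set marks probes that could not all be chosen by the usual rules, so its signal may be less specific. Other probe sets read here with the same suffix include those of Sox2, Junb, Cggbp1 and Cox6b1, and on U74Av2 those of Col1a2 and of the lower H2bc22 reading.

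Of 27 genes in the 4 Nodal lists (ligands, receptors and co-receptors, transducers, inhibitors and targets), 11 were tested on both versions and 0 passed the adjusted threshold. Among the 11, 4 lay lower and 1 higher in 6 of 6 array comparisons, beside 7.66% and 6.61% of all probe sets, and their median log2 fold change was 0.20. Nodal, Lefty1 and Tdgf1 were at -1.20 or below, and the other 8 lay between -0.32 and 0.51. The highest was the co-repressor gene Tgif1 (0.51 ± 0.27, SE), which ran from 0.24 to 0.78 when 1 array was left out. The median of the 4 transducers was 0.30. Lefty2 did not pass the signal filter and was not tested. Of the BMP and Id list, Id2 and Id1, which encode inhibitors of basic helix-loop-helix factors and are targets of BMP signalling, lay higher in 6 of 6 comparisons, at 0.85 ± 0.29 and 0.50 ± 0.30 (SE; adjusted p = 0.837 and 0.995, limma).

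The promoters of the lower Nodal pathway genes are shown because Nodal and its targets are bound by SMAD and FOXH1 factors. The RefSeq table (GRCm38.p6) matched 2 of the 4 genes Lefty1, Lefty2, Nodal and Tdgf1, each over 250 bases before to 50 bases after the gene's start, and capitals mark a searched motif. The region of Nodal was chr10:61417722-61418021 on the plus strand and that of Tdgf1 was chr9:110946109-110946408 on the minus strand.
Nodal: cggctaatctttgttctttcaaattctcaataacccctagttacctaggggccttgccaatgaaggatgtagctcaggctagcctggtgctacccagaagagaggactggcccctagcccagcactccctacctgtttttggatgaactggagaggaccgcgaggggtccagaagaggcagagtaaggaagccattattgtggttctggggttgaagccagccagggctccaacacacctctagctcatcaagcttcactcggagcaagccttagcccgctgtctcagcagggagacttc
Tdgf1: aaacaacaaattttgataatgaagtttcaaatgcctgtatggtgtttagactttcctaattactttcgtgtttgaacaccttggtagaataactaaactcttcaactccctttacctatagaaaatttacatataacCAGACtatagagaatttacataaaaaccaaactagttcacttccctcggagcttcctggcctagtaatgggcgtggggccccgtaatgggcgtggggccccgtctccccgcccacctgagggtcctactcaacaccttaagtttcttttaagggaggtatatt
The motifs searched on both strands were CAGAC (SMAD), AATCCACA (FOXH1) and the octamer ATGCAAAT (OCT factors), and no match overlapped another here. They occur in 49.6%, 0.855% and 1.74% of the 32851 promoters of the table. Tdgf1 held 1 SMAD match, with its first base 113 bases before the start (position -113), and Nodal held 0 matches in this window. A match describes the letters only.

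**Figure D2:**
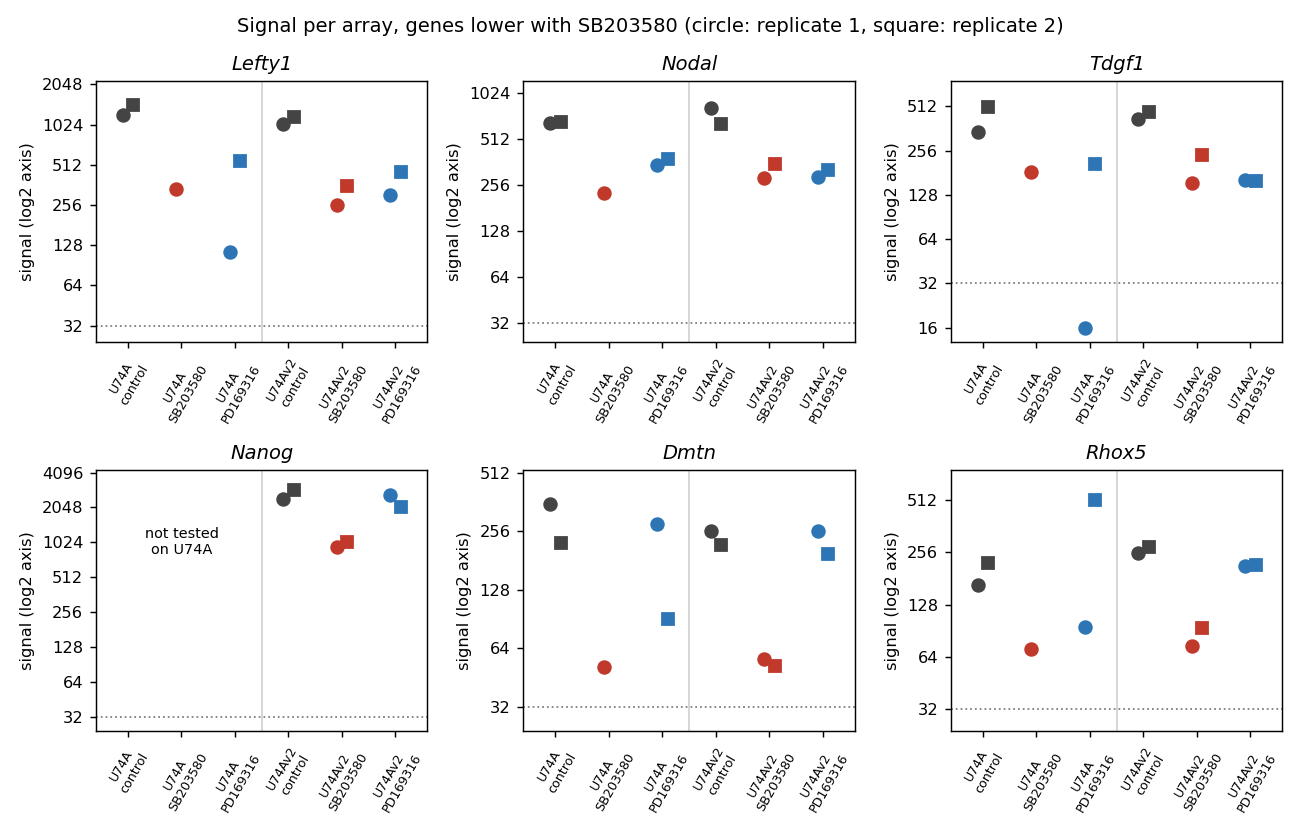
Signal per array (log2 axis) for 6 genes with lower values under SB203580, by array version and condition, with circles for replicate 1, squares for replicate 2 and a dotted line at the floor of 32. The red SB203580 points of Lefty1, Nodal, Tdgf1, Dmtn and Rhox5 lie below the black control points of the same version, and Nanog was tested on U74Av2 only.

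Of the pluripotency genes, 20 of 34 were tested on both versions and 0 passed the adjusted threshold. Among them 4 lay lower and 0 higher in 6 of 6 comparisons, beside 7.66% and 6.61% of all probe sets, the median log2 fold change was -0.26, and 14 of the 20 were below 0. Over all probe sets the median was -0.003 and 2709 of 5369 were below 0. The 4 were Tdgf1, Rest, Zfp42 and Mybl2. Zfp42, which encodes the ES cell marker REX1, had signals of 514.9 and 584.2 on the U74A controls and 442.2 with SB203580, and of 549.9 and 1113.3 on the U74Av2 controls and 318.7 and 362.9 with SB203580. Its log2 fold change was -0.76 ± 0.33 (SE; adjusted p = 0.921, limma). Mybl2, a cell cycle transcription factor gene, was at -0.52 ± 0.22 (SE).

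Nanog, a core pluripotency factor gene, was measured on U74Av2 only, since its U74A probe set is listed at 0 on every array. Its signals there were 2414.5 and 2888.3 in controls and 933.7 and 1028.8 with SB203580, or 2651 ± 335 and 981.2 ± 67.2 (SD, n = 2 each). The groups stood apart by more than their spread, with a log2 fold change of -1.43 ± 0.25 (SE; 95% confidence interval -1.97 to -0.89; adjusted p = 0.374, limma over 7050 probe sets). A dimmer probe set of Nanog gave -0.64. Sox2, which encodes the partner factor of OCT4, was at 0.04 ± 0.21, with signals of 2718.5 and 2466.1 against 2900.3 on U74A and of 4015.3 and 3280.5 against 3235.7 and 3651.5 on U74Av2. The Sox2 groups overlapped on U74Av2. Pou5f1 was at -0.32 ± 0.23 (SE), with 0.00 on U74A and -0.65 on U74Av2.

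The list of LIF and STAT3 genes had 15 tested members, with 3 lower (Pim1, Junb and Stat3) and 0 higher in 6 of 6 comparisons, beside 7.66% and 6.61% of all probe sets. Their median was -0.27, and -0.12 when each gene was read by its dimmest tested probe set. Pim1, a STAT3-induced kinase gene, was at -0.54 ± 0.24 (SE), and its signals were 1584.8 and 1322.5 against 989.2 on U74A and 1603 and 1595.5 against 1223.7 and 1002.2 on U74Av2. A dimmer probe set of Pim1 gave 0.27 ± 0.53. Junb, an AP-1 subunit gene, was at -1.09 ± 0.50 (SE), with 1 bright U74A control at 425.8 and the other at 104.

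The lowest log2 fold change among the 5369 probe sets was that of Dmtn, which encodes dematin, an actin-bundling protein of the membrane skeleton. Its signals were 352.8 and 221.2 on the U74A controls and 51.1 with SB203580, and 256.3 and 216.6 on the U74Av2 controls and 56.5 and 51.8 with SB203580. The SB203580 arrays lay near the floor and the controls well above it. The log2 fold change of Dmtn was -2.29 ± 0.46 (SE; 95% confidence interval -3.33 to -1.24; adjusted p = 0.0676, limma), and it passed with the U74A PD169316 array 2 left out (adjusted p = 0.0244). Over the alternatives tried, its adjusted p ran from 2.24e-05, in the fit of 2 ratios, to 0.449. In the list of membrane skeleton and erythroid genes, 3 of 14 tested members lay lower in 6 of 6 comparisons (Dmtn, Stom and Mpp1) and 0 higher, beside 7.66% and 6.61% of all probe sets, and the median was -0.15. Of the blood and erythroid markers 4 were measured and 3 passed the filter, and their summed signal overlapped between groups, at 389.1 to 445.9 in controls and 216.4 to 481.2 with SB203580 on U74Av2 and at 207.4 to 528.4 and 268.7 on U74A. The alpha globin gene Hba-a1, the brightest on U74Av2, lay lower with SB203580 there, at 199.3 to 219.8 in controls and 133.5 to 176.9 with SB203580, and overlapped on U74A, at 87.5 to 204.6 and 144.3. Gata1 overlapped on U74Av2, at 66.7 to 102.4 in controls and 68.9 to 118.7 with SB203580. The part of these markers in the Dmtn values was not tested.

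The 15 lower genes with the smallest p among those below control in 6 of 6 comparisons ranged from -0.99 (Tex19.1) to -2.29 (Dmtn). After Dmtn, Lefty1, Nodal and Actb came Cox6b2, the testis isoform of a cytochrome c oxidase subunit (-1.48 ± 0.34, SE), and Rhox5, an X-linked homeobox gene (-1.55 ± 0.51). Inpp5d, which encodes the lipid phosphatase SHIP1, was at -1.22 ± 0.33, with -0.14 in the U74Av2 pair numbered 1 and -2.14 in the pair numbered 2. Ptprr, a tyrosine phosphatase gene whose product binds MAP kinases, was at -2.74 on U74A and -0.61 on U74Av2. The others were the epithelial ETS factor gene Elf3 (-1.88 ± 0.51), the kinesin light chain gene Klc4 (-1.14 ± 0.33), the aminopeptidase N gene Anpep (-2.12 ± 0.58), the p21-activated kinase gene Pak4 (-1.60 ± 0.49), Cggbp1 (-1.48 ± 0.44), Tex19.1 and the uridine phosphorylase gene Upp1 (-1.31 ± 0.41). Elf3 gave -0.17 in the U74Av2 pair numbered 1 and -3.42 in the pair numbered 2, whose SB203580 array read 33.5, near the floor. From Cox6b2 on, the adjusted p values in limma were 0.256 to 0.587. Cggbp1 was not read alike by its probe sets: the one counted here was the only one tested on both versions, while a brighter one on U74Av2 read 476 and 412.3 in controls and 528.2 and 429 with SB203580 (log2 fold change 0.10).

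Actb, the beta-actin gene, was not read alike by its probe sets. The brightest of its tested probe sets, of a type that can also bind related sequences, had signals of 2286.6 and 2581.1 on the U74A controls and 740.1 with SB203580. On U74Av2 that probe set read 3356 and 865.1 in controls and 836.2 and 520.1 with SB203580, so that the second control lay close to the first SB203580 array. Its log2 fold change was -1.54 ± 0.32 (SE; adjusted p = 0.165, limma), and -2.03 with the U74Av2 control 2 left out. Over the alternatives tried its adjusted p ran from 0.000707, in the fit of 2 ratios, to 1. The other tested Actb probe set gave -0.79 ± 0.36. The 3' control probe set of Actb showed no such order, with signals of 7143.6 and 22047 on the U74A controls and 9135.1 with SB203580, and of 7099.3 and 6083.6 on the U74Av2 controls and 8820.5 and 8227.9 with SB203580. Wherever Actb is counted or called lower in this comparison, that is the reading of the brightest tested probe set. The probe sets read here for Cox6b2, Actn1, Hif1a and Mtdh are also of the type that can bind related sequences.

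The higher values were smaller. The 15 genes with the smallest p among those above control in 6 of 6 comparisons ranged from 0.79 (Clic4) to 1.43 (Tagln), with adjusted p values of 0.279 to 0.74 in limma. Nnat, the imprinted neuronatin gene, had signals of 156.9 and 259.7 on the U74A controls and 542.3 with SB203580, and of 168.3 and 236.9 on the U74Av2 controls and 467 and 554.3 with SB203580. The groups of Nnat did not overlap, and its log2 fold change was 1.39 ± 0.33 (SE; 95% confidence interval 0.63 to 2.15; adjusted p = 0.279, limma, and 0.0739 with the block). The U74A ratio was 1.79 within day 3.

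Nnat belongs to the list of imprinted genes, which are expressed from 1 parental allele. Of its 17 tested members, 5 lay higher (Nnat, Mest, Phlda2, Ndn and Dlk1) and 1 lower (Ube3a) in 6 of 6 comparisons, beside 6.61% and 7.66% of all probe sets. Of the 17, 14 were above 0, beside 2660 of 5369 probe sets, and the median was 0.28. Mest, a paternally expressed gene, was at 0.90 ± 0.29 (SE), with signals of 374.3 and 495.7 against 856.1 on U74A and of 407.1 and 334.2 against 861.3 and 481.8 on U74Av2. Phlda2, a maternally expressed gene, was at 0.59 ± 0.23 (SE), and no gene of the list passed the adjusted threshold.

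The epiblast and early neural genes had 16 tested members, of which 4 lay higher (Nnat, Marcks, Stmn2 and Nes) and 1 lower (Ncam1) in 6 of 6 comparisons, beside 6.61% and 7.66% of all probe sets. Their median log2 fold change was 0.49, and 14 of 16 were above 0, beside 2660 of 5369 probe sets. Marcks, which encodes an actin-binding substrate of protein kinase C, was at 0.51 on U74A and 1.80 on U74Av2. The lowest member was Zic2, a zinc finger factor gene, at -1.48 ± 0.44 (SE). Its U74Av2 groups overlapped, at 305.1 and 154.4 in controls and 162.5 and 49 with SB203580, and another Zic2 probe set, on U74Av2 only, gave 0.35. Of the 3 neural markers, the factor gene Pax6 was dim but lay higher with SB203580 without overlap, at 37.3 to 53.2 in controls and 67.6 to 73.2 with SB203580 on U74Av2 and at 35.9 to 59.4 and 64.6 on U74A. Sox1, another neural factor gene, was dim and overlapped on U74Av2, at 80.3 to 139.8 and 44 to 96.3. Tubb3, a neuronal tubulin gene measured on U74Av2, was bright and overlapped, at 2458.9 to 3352 in controls and 2304.5 to 2478.6 with SB203580. Its probe set is of the type that can also bind related sequences. The part of these markers in the list's values was not tested.

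Genes of the actin cytoskeleton had 33 tested members, with 8 higher and 1 lower (Actb) in 6 of 6 comparisons, beside 6.61% and 7.66% of all probe sets, and a median of 0.13. The 8 were Tagln, Tmsb4x, Actn1, Tpm4, Ccn2, Vcl, Pfn2 and Arpc5. Tagln, the actin-binding protein transgelin, had signals of 174.5 and 289.5 on the U74A controls and 907.3 with SB203580, and of 380.4 and 379.3 on the U74Av2 controls and 733.2 and 628.6 with SB203580. The groups of Tagln stood apart on both versions, with a log2 fold change of 1.43 ± 0.32 (SE; adjusted p = 0.365, limma) that was 2.01 on U74A and 0.84 on U74Av2. Tmsb4x, whose product sequesters actin monomers, was at 1.12 ± 0.33 (SE).

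Rac1, a small GTPase that drives lamellipodia, had signals of 2865.1 and 2052.2 on the U74A controls and 4530.7 with SB203580, and of 2182.4 and 2837.3 on the U74Av2 controls and 3908.4 and 4672.3 with SB203580. All 3 SB203580 values exceeded the controls of their version, and the log2 fold change of Rac1 was 0.84 ± 0.22 (SE; adjusted p = 0.52, limma). Nras, a RAS family GTPase gene, was at 0.86 ± 0.22, with 2216 ± 12.4 under SB203580 and 1413 ± 215 in controls on U74Av2 (SD, n = 2 each). A further Nras probe set, on U74Av2 only, gave 0.17. Of 23 tested small GTPase genes 3 lay higher (Rac1, Nras and Rab10) and 1 lower (Rap1a) in 6 of 6 comparisons, beside 6.61% and 7.66% of all probe sets, and the median was 0.17. A brighter Rab10 probe set, on U74Av2 only, gave 0.16.

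The remaining higher genes were of mixed function. Plk4, the kinase gene of centriole duplication, was at 0.93 ± 0.26 (SE), with U74Av2 signals of 691.4 and 543 in controls and 1187.1 and 1160.4 with SB203580. Cd24a, a surface glycoprotein gene, was at 0.90 ± 0.25 and F2r, the thrombin receptor gene, at 1.04 ± 0.30. A dimmer F2r probe set gave 0.84 ± 0.47, with 2.07 on U74A and -0.39 on U74Av2, and another, tested on U74Av2 only, gave 1.32. Clic4, a chloride channel family gene, was at 0.79 ± 0.23 by its brightest probe set, while its other probe sets gave -0.12 and 0.36. Scd2, a fatty acid desaturase gene, was at 0.88 ± 0.28, Tnpo1, a nuclear import receptor gene, at 0.79 ± 0.26, Arih1, a ubiquitin ligase gene, at 1.07 ± 0.30 and Strn3, a striatin family gene, at 0.98 ± 0.30. A dimmer Tnpo1 probe set gave -0.13 ± 0.63.

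**Figure D3:**
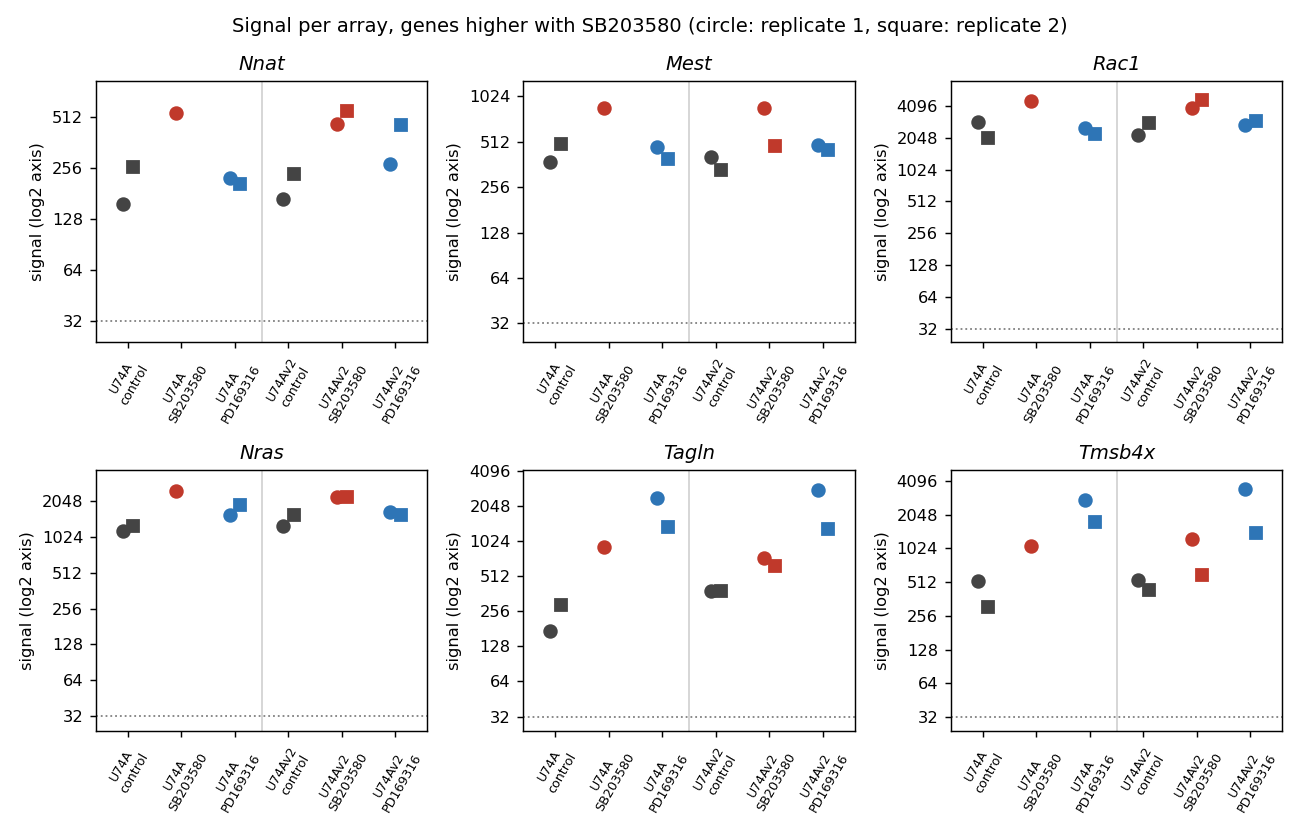
Signal per array (log2 axis) for 6 genes with higher values under SB203580, laid out as in the plot of the lower genes. The red SB203580 points lie above the black control points of the same version, and for Tagln and Tmsb4x the blue PD169316 points lie above the SB203580 points.

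Members of the p38 cascade were measured next to these. Of 16 tested, 3 lay lower (Elk1, Mknk1 and Mapkapk5) and 1 higher (Mapk14) in 6 of 6 comparisons, beside 7.66% and 6.61% of all probe sets, with a median of 0.04. Mapk14, the gene of p38 alpha, had signals of 928.5 and 571.5 against 1038.6 on U74A and of 1063.6 and 1056.8 against 1342.1 and 1415.8 on U74Av2. Its log2 fold change was 0.45 ± 0.28 (SE; adjusted p = 0.995, limma). Mapkapk2, the p38 substrate kinase gene, was at 0.08 ± 0.29 and its groups overlapped. Elk1, an ETS factor phosphorylated by MAP kinases, had signals of 89 and 138 against 41.3 on U74A and of 133.6 and 113.4 against 53.3 and 55.6 on U74Av2, and was at -1.30 ± 0.49 (SE; adjusted p = 0.903). Mknk1, a kinase gene downstream of p38 and ERK, was at -0.82 ± 0.47.

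Of the immediate early genes, 1 of 15 lay higher and 1 lower in 6 of 6 comparisons, beside 6.61% and 7.66% of all probe sets, and the median was 0.04. The higher one was Dusp6, an ERK phosphatase gene, at 1.18 ± 0.44 (SE). Dusp6 rested in part on a U74A control of 136.9, where the other read 479.1, and its U74A ratio was 0.65 within day 3 and 2.46 across days.

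No gene of the metabolic lists passed the adjusted threshold, and the counts in 6 of 6 comparisons here stand beside 6.61% higher and 7.66% lower over all probe sets. Of 15 tested glycolysis and hypoxia genes 14 were below 0, beside 2709 of 5369 probe sets, with a median of -0.36. Yet only Ldha lay lower in 6 of 6 comparisons and Hif1a lay higher (0.61 ± 0.32, SE). The median of this list was -0.10 in the U74A pair of day 3, and -0.23 and 0.003 in the U74Av2 pairs numbered 1 and 2. Hif1a ran from 0.32 to 0.90 when 1 array was left out. Pfkl, a phosphofructokinase gene, was at -0.92 ± 0.36, with -1.30 on U74A and -0.54 on U74Av2. Among 9 cytochrome c oxidase genes 8 were below 0, led by Cox6b2 and Cox6b1, and the median was -0.15. Of 14 sterol and fatty acid synthesis genes, 4 lay higher (Scd2, Sqle, Scd1 and Idi1) and 1 lower (Fdft1), with a median of 0.05. Sqle, the squalene epoxidase gene, was at 0.81 ± 0.29. Of 34 cell cycle genes 5 lay higher and 5 lower, and of 16 heat shock and chaperone genes 0 lay higher and 0 lower.

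**Figure D4:**
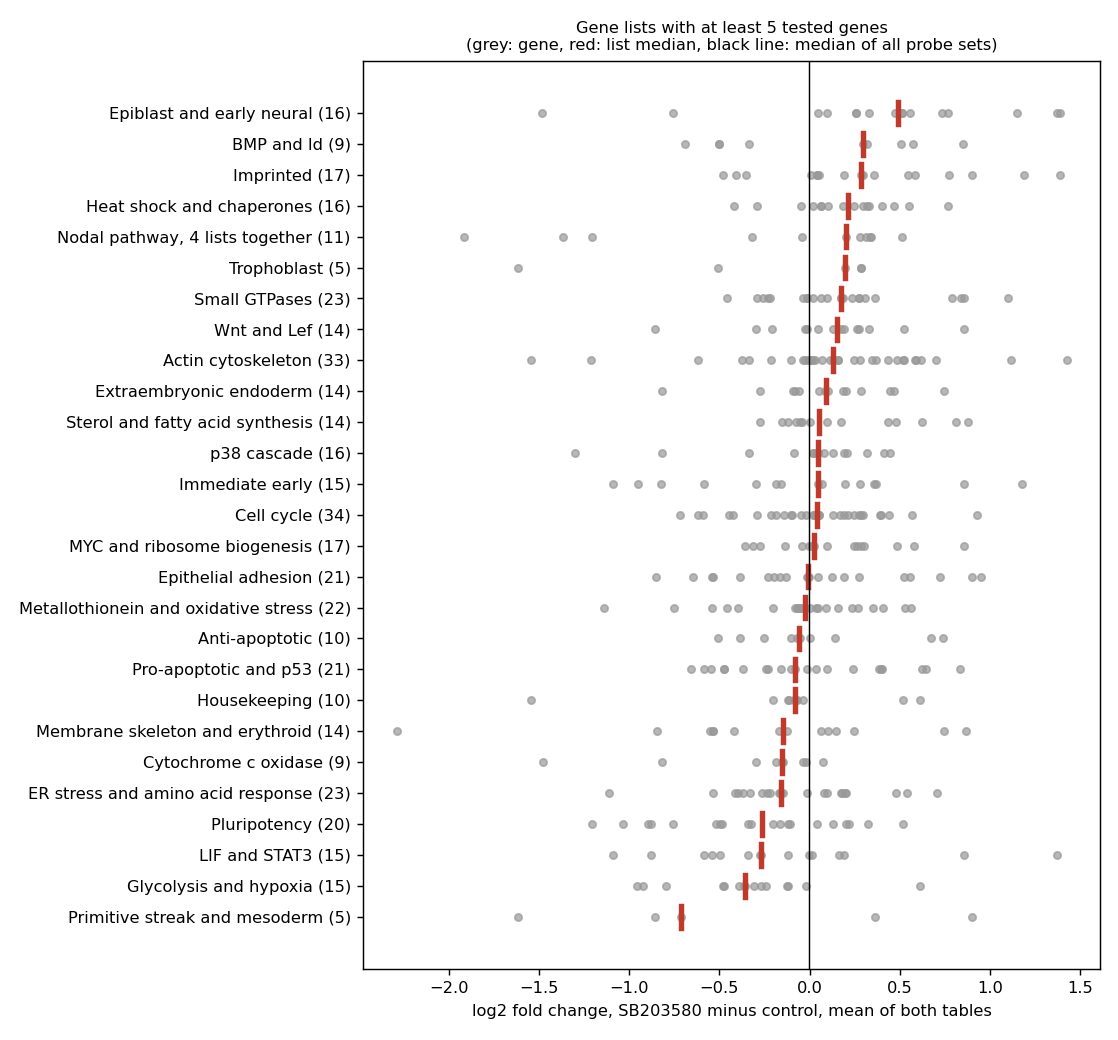
Log2 fold change of SB203580 against control (x axis, mean of both array versions) for the tested genes of each list with at least 5, with grey points for genes and a red bar for the list median. The black line is the median of all 5369 probe sets, -0.003, and the medians run from -0.71 for 5 primitive streak and mesoderm genes to 0.49 for 16 epiblast and early neural genes.

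Probe sets tested on U74Av2 alone numbered 1681, and for those probe sets the 2 against 2 arrays are the whole evidence (adjusted p = 0.983 in limma for those named here). The interleukin receptor gene Il15ra read 174.9 and 163.6 in controls and 19.3 and 38.5 with SB203580 (log2 fold change -2.27 ± 0.64, SE). These SB203580 values lay under or near the floor, and over the alternatives tried the log2 fold change of Il15ra ran from -2.63 to -1.40. The histone gene H2bc22 read 302 and 288.4 against 107.1 and 75.5 (-1.71). Another H2bc22 probe set, tested on both versions, went the other way, with 38.3 and 28.2 against 102.2 and 133 on U74Av2 and 12.8 and 119.2 against 144.3 on U74A (1.48 ± 0.74, SE; adjusted p = 0.995), so its probe sets disagree. Fjx1 read 30.8 and 28.7 in controls, under the floor, and 141.5 and 123.2 with SB203580, and Mtdh 640.7 and 593.9 against 1174.9 and 990.2. The 4 probe sets named here that were tested on U74Av2 alone were chosen by their small U74Av2 p. That their groups did not overlap goes with this choice and is no further evidence.

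The other inhibitor allowed 1 pair of related compounds to be compared at the same dose and time, 10 µM for 3 days. PD169316 carries a nitro group on a phenyl ring where SB203580 carries a methylsulfinyl group. The direct test of PD169316 minus SB203580 called 37 of 5369 probe sets (0.689%), 28 higher and 9 lower with PD169316, at an adjusted p under 0.05 over all of them. Of the 15 lower genes above, 2 passed in this test, Dmtn and Inpp5d, both with higher signals under PD169316, and 13 of the 15 had higher values with PD169316 than with SB203580. Of the 15 higher genes 0 passed, and 11 had lower values with PD169316. The 95% interval of the difference included 0 for 8 of the 15 lower and 8 of the 15 higher genes. Both sets were chosen by SB203580 values that also enter this difference, so a swing back would appear without any effect of PD169316. Over all 5369 probe sets the median difference was 0.04. The counts of direction therefore say nothing on their own about how the compounds differ.

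For the Nodal genes no difference between the compounds passed. Lefty1 had signals of 114.3 and 543.7 (U74A) and 306.6 and 455.5 (U74Av2) with PD169316, and the difference from SB203580 was -0.07, with a 95% interval of -1.05 to 0.91. Nodal read 344.7 and 380.7 (U74A) and 290.8 and 320.5 (U74Av2) with PD169316, and differed by 0.31 (-0.31 to 0.94). Tdgf1 differed by -0.70 (-1.92 to 0.51). These p values do not show that the compounds act alike on Nodal genes.

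The difference between the compounds passed for Dmtn, Inpp5d and Fbxo15 and did not for Nanog. Dmtn read 278.2 and 90.1 (U74A) and 255.9 and 196.1 (U74Av2) with PD169316, and lay 1.84 above SB203580 (0.79 to 2.89; adjusted p = 0.0365, limma). On U74Av2 the PD169316 values of Dmtn lay among or beside those of the controls. Nanog read 2597.7 and 2052 with PD169316 on U74Av2, 1.24 above SB203580 (0.70 to 1.78; adjusted p = 0.176). Inpp5d lay 1.61 above (0.87 to 2.36; adjusted p = 0.0263), and Fbxo15, an OCT4 target gene, also 1.61 above (0.71 to 2.50; adjusted p = 0.0365).

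Other genes, Mt1, Mt2 and S100a6, separated the compounds and had SB203580 values closer to control than to PD169316. The metallothionein gene Mt1 read 1593.4 and 3358.4 on the U74A controls, 2423.9 with SB203580, and 12964 and 13587 with PD169316. On U74Av2 Mt1 read 1801 and 805.8 in controls, 2652.8 and 2364.6 with SB203580, and 12099 and 11998 with PD169316, so that SB203580 lay among the controls on U74A and above them on U74Av2 (log2 fold changes of 0.07 and 1.06). Its difference between the compounds was 2.36 (1.71 to 3.00; adjusted p = 0.000115, limma), against a difference of SB203580 from control of 0.56 ± 0.28 (SE). Mt2 and the calcium-binding protein gene S100a6 differed by 2.08 (1.55 to 2.62) and 3.08 (2.26 to 3.90), both with an adjusted p of 0.000115. SB203580 minus control was 0.27 ± 0.23 for Mt2 and 0.59 ± 0.36 for S100a6. Tagln and Tmsb4x, higher with SB203580 than in controls, lay a further 1.23 (0.51 to 1.96; adjusted p = 0.065) and 1.20 (0.45 to 1.95; adjusted p = 0.113) above SB203580 with PD169316. Nnat, Rac1 and Plk4 lay below SB203580 with PD169316, by -0.94 (-1.70 to -0.18), -0.76 (-1.27 to -0.25) and -0.83 (-1.42 to -0.23), with adjusted p values of 0.282, 0.131 and 0.174. Tagln, Tmsb4x, Nnat, Rac1 and Plk4 were named by the SB203580 values that enter both comparisons, so their differences are not independent of them. Mt1, Mt2 and S100a6 were fixed by name with earlier results of these data known. Their differences are thus no independent evidence either.

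**Figure D5:**
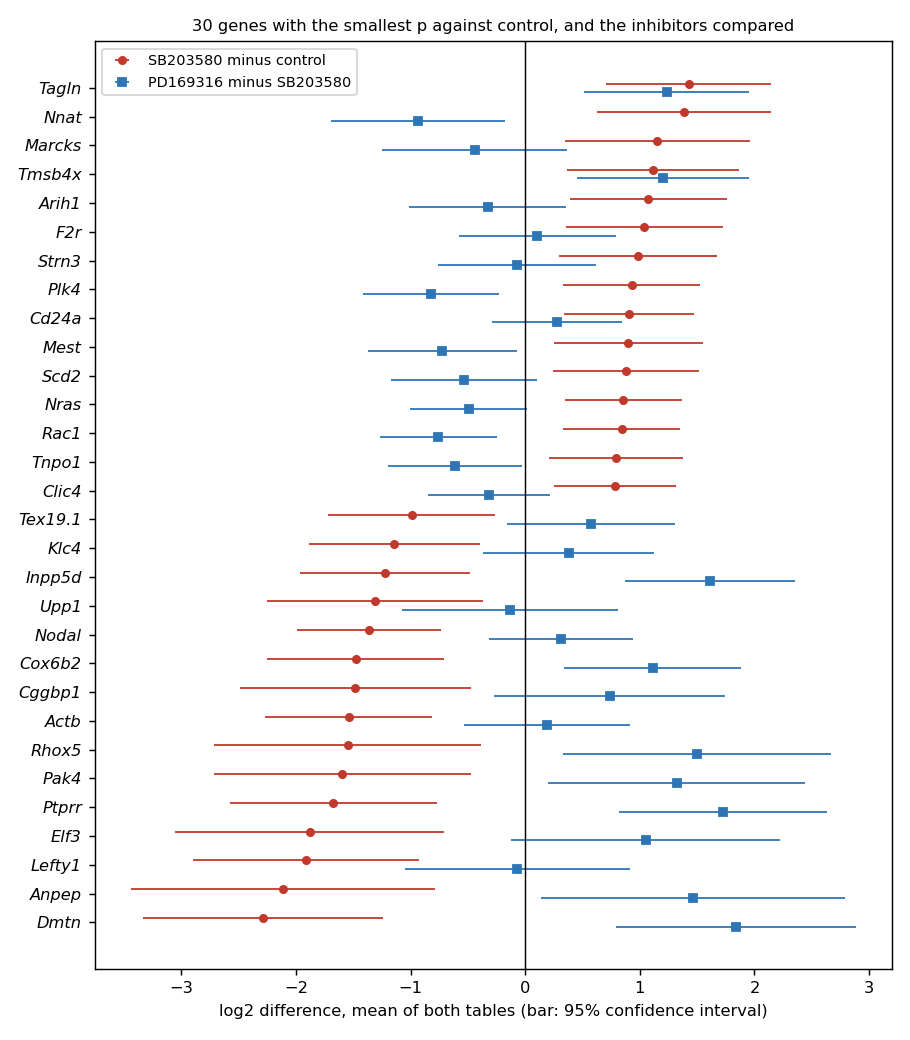
Log2 difference (x axis, mean of both array versions, bars are 95% confidence intervals) of SB203580 minus control (red circles) and of PD169316 minus SB203580 (blue squares) for the 30 genes with the smallest p. The blue interval of Lefty1, -1.05 to 0.91, spans 0, and that of Dmtn, 0.79 to 2.89, does not.

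The array pairs resembled each other weakly. Across the 5369 probe sets the log2 ratios of SB203580 to control correlated at r = 0.23 between the day 3 pairs of the 2 array versions, at 0.08 between the U74Av2 pairs numbered 1 and 2, and at -0.03 between the U74A day 3 pair and the U74Av2 pair numbered 2. These are correlations across genes, which are not independent replicates, of pairs that share no array. Whether the day 3 arrays of the 2 versions carry the same RNA is not stated in the labels. Their Actb 3' control signals on U74A and U74Av2 were 7143.6 and 7099.3 for control, and 9135.1 and 8820.5 for SB203580. Shared RNA was not tested, and the main combined test took the 2 versions as independent. Allowing for the correlation of 0.21 between the z scores of the 2 versions, 0 probe sets passed and 162 had an unadjusted p under 0.05.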

How the data were processed

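Per the labels, cRNA from adherent cells was hybridized to MG-U74A and MG-U74Av2 arrays, and the authors computed the deposited values, an intensity (signal) per probe set, with Microarray Suite 5.0, scaled globally to a trimmed mean of 300. The array versions were scaled separately, so tests stayed within a version. Signals were floored at 32 and log2-transformed. Probe sets reaching 100 on at least 2 S1 arrays were fitted with limma 3.58.1 in R 4.3.3 (eBayes with trend, two-sided, Benjamini-Hochberg). Control, PD169316 and SB203580 arrays shared 1 estimate of the spread, and the lone U74A SB203580 array was assumed to vary like the others. The combined z score was the sum of the 2 within-version z scores over the square root of 2. For groups of 2 against 2 an exact permutation test cannot go below p = 0.333. The number of arrays limits the precision. Genes were named from the platform annotation (10298 and 10855 probe sets with 1 symbol, 363 and 396 with several, 1993 and 1237 with none on U74A and U74Av2), and a gene was represented by its brightest tested probe set. The 2611 U74A probe sets listed at 0 throughout stayed out.

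The named genes were the 15 lower and 15 higher genes with the smallest combined p among those on 1 side in 6 of 6 comparisons, up to 5 each way from probe sets tested on U74Av2 only, the 3 with the smallest p of each of 34 lists, and genes fixed by name, of which the text gives a selection. The members and lists were chosen with earlier results of these data known. The scripts were tested on simulated data with known changes. The combined test recovered 32 of 100 probe sets with a true log2 change of 1 and 90 of 100 with one of 2, with 6 false calls. The noise of the 2 versions was drawn independently there, which may not hold for these arrays. Alternatives are given in the closing section.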

Additional observations from a re-analysis of the deposited data

How the results depend on the processing

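The combined count was 0 of the probe sets tested in limma under quantile normalization, a minimum signal of 200, floors of 16 and 64 and no intensity trend. It was also 0 without the 2 control arrays of day 3, an alternative chosen after seeing the data. The number tested was 5369 in the main run and changed with the signal filter. It was 1 with log2(signal + 50) and with control and SB203580 arrays alone (Lefty1 in both), 2 without the signal filter, where U74A alone gave 74 and U74Av2 3, and 0 to 2 when 1 array was left out. Leaving out the U74A SB203580 array leaves no U74A contrast. The labels do not say that replicate numbers pair the samples: deviations of the U74Av2 arrays numbered 1 correlated at 0.18 (control and PD169316), 0.08 (control and SB203580) and 0.17 (both inhibitors), and the replicate block gave 3 calls. A further fit took 2 log2 ratios, the mean of the day 3 pairs and that of the U74Av2 pair numbered 2. The arrays of that second pair were washed on days 4 and 5, so it is not a single wash batch, and the U74A control 2 did not enter. In this fit of 2 ratios 49 probe sets passed (24 higher, 25 lower), Lefty1, Nodal and Dmtn among them. It has 1 residual degree of freedom and pools its spread over all probe sets.

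The counts in 6 of 6 comparisons depend on how many arrays enter. At least 2-fold lower numbered 8, and 4 at a minimum signal of 200, 5 at a floor of 64, 2 with log2(signal + 50), 7 to 17 with 1 array left out and 21 without the day 3 controls. At least 2-fold higher numbered 0, and 1 under quantile normalization, 1 without the filter, 1 to 9 with 1 array left out and 10 without the day 3 controls. Lower by any amount numbered 411, and 270 at a minimum of 200, 529 to 777 with 1 array left out and 1062 without the day 3 controls. Higher by any amount numbered 355, and 454 to 734 with 1 array left out and 771 without the day 3 controls.

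The 37 calls between the inhibitors became 3 without the filter, 17 without the trend, 88 with the replicate block, 6 with the z scores taken as correlated, 59 without the day 3 controls and 12 to 111 with 1 array left out. The lowest was without the U74Av2 PD169316 array 1 and the highest without the U74Av2 PD169316 array 2. Of 59 genes followed, 57 kept their direction in every alternative run. Sox2 turned to -0.0074 under quantile normalization and -0.017 with the replicate block, and ran from -0.030 to 0.12 when 1 array was left out. Mapkapk2 ran from -0.065 to 0.23 when 1 array was left out and turned to -0.12 without the day 3 controls. With the dimmest tested probe set of a gene, 15 of 34 list medians differed, by at most 0.19, and 0 changed sign. Of these, 9 differed by over 1.5 times: BMP and Id (0.29 to 0.10), LIF and STAT3 (-0.27 to -0.12), ER stress (-0.16 to -0.01), pro-apoptotic (-0.08 to -0.01), heat shock (0.21 to 0.14), sterol and fatty acid (0.05 to 0.13), membrane skeleton (-0.15 to -0.10), p38 cascade (0.04 to 0.10) and immediate early (0.04 to 0.07). The cause of these shifts was not tested.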
